A study of Capra hircus with 72 samples.

Results

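The genes described here are 10 genes of pericytes and smooth muscle, the mural cells that wrap brain vessels: MYH11, CNN1, ACTA2, TAGLN and DES, which encode contractile and cytoskeletal proteins of smooth muscle, and RGS5, KCNJ8, ABCC9, PDGFRB and NOTCH3, which encode signalling proteins of pericytes. They were picked by gene symbol from a table of 21343 goat genes. All 10 had 1 row each and all 10 passed the filter on low counts in every comparison. RNA came from goats (Capra hircus, female) and was sequenced from 4 brain regions. These were the medial prefrontal cortex (mPFC) and 3 regions of the brainstem's breathing network: the retrotrapezoid nucleus (RTN), the solitary tract nucleus (NTS) and the ventral column of respiratory neurons (VRC). The study asked how chronic hypercapnia, a raised level of inspired CO2, altered expression against room air. The 3 conditions were room air for 14 days, mild hypercapnia (6% CO2 for 14 days) and moderate hypercapnia (6% CO2 for 7 days and then 8% for 7 days). Each region and condition had 6 libraries, 72 in all, made from bulk tissue, and the series design gives 6 animals per condition.

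Arteries and arterioles carry rings of smooth muscle that contract through smooth muscle myosin and actin, while capillaries carry pericytes that use little of this contractile set. Pericytes are recruited and kept through PDGF receptor beta, arterial smooth muscle is kept mature through NOTCH3, and the channel of KCNJ8 and ABCC9 subunits couples the metabolic state of these cells to their membrane potential. CO2 is a strong dilator of brain vessels, and these cells set vessel diameter.

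MYH11 (ENSCHIG00000010603, chromosome 25) encodes smooth muscle myosin heavy chain, CNN1 (ENSCHIG00000019758, chromosome 7) calponin, ACTA2 (ENSCHIG00000017779, chromosome 26) smooth muscle actin, TAGLN (ENSCHIG00000014769, chromosome 15) transgelin, and DES (ENSCHIG00000008416, chromosome 2) the intermediate filament desmin. RGS5 (ENSCHIG00000022623, chromosome 3) encodes a regulator of G protein signalling. KCNJ8 (ENSCHIG00000023544) and ABCC9 (ENSCHIG00000026713) encode the pore and the regulatory subunit of an ATP-sensitive potassium channel and lie next to each other on chromosome 5. PDGFRB (ENSCHIG00000024821) and NOTCH3 (ENSCHIG00000016952) are both on chromosome 7. ACTA2 is nearly identical in sequence to other actin genes, ACTG2 among them, and how reads shared by such genes were counted is not given in the sources used here, so its level is uncertain to that extent.

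The libraries held between 12.8 and 31.9 M counts each (median 19.3 M). All 6 myelin markers listed were called higher in each brainstem region than in mPFC in room air, with median log2 fold changes of 1.95 in NTS, 3.39 in VRC and 2.66 in RTN. Skeletal muscle genes, which could enter with adjoining tissue, were low, with at most 4.63 RPKM summed over 6 genes in any library. CKM did not exceed 0.0758, while TNNC2 reached 2.99. Their summed medians in room air were 1.47 RPKM in mPFC, 1.71 in NTS, 2.32 in VRC and 2.12 in RTN. The library of mPFC in room air numbered 2 and that of RTN in room air numbered 1 stood apart in the contractile genes, so room air contrasts of contractile genes with mPFC are given with and without them. The labels do not say that a replicate number marks an animal, so p-values measure the spread between these libraries.

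Actin, transgelin and RGS5 were the most abundant of the 10 genes, and NOTCH3 and ABCC9 the scarcest. On the deposited RPKM scale, which allows levels to be compared between genes, the room air mPFC held ACTA2 at 91.3 ± 80.9 RPKM (SD, n = 6), TAGLN at 82.8 ± 72.3 and RGS5 at 73.4 ± 27.5. These 3 neighbours in the order did not differ beyond their spread. MYH11 followed at 13.6 ± 15.6, KCNJ8 at 12.8 ± 2.4, CNN1 at 10.2 ± 8.75, DES at 6.88 ± 5.23 and PDGFRB at 6.40 ± 1.497. NOTCH3 at 0.991 ± 0.243 and ABCC9 at 0.897 ± 0.354 closed the order and overlapped. ABCC9 stood more than 10-fold below KCNJ8, the partner subunit of its channel, in each region. In the brainstem RGS5 led, at 51.5 ± 6.17 RPKM in NTS, 73.4 ± 26.1 in VRC and 55.0 ± 11.3 in RTN. RPKM depends on the gene length in the deposited table, which was 606 bases for TAGLN and 787 for RGS5 against 9005 for ABCC9.

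The contractile genes were mostly higher in mPFC than in the brainstem, while calls on the pericyte genes went in both directions. Among regions in room air 8 of the 10 genes differed at an edgeR adjusted p under 0.05, but so did 69.2% of all genes tested, so this count does not set them apart. The exceptions were KCNJ8 (adjusted p = 0.278) and ABCC9 (adjusted p = 0.296). Of the 15 tests of a contractile gene in a brainstem region against mPFC, 13 were called lower and 0 higher, and of the 15 tests of a pericyte gene 3 were called lower and 2 higher. These fits took libraries of the same number as independent, though they may share an animal. With the replicate number as a block, 12 of the contractile tests were called lower and 0 higher. Of all genes, 24.5% were called lower in NTS than in mPFC, 30.9% in VRC and 26.9% in RTN. Called higher were 23.7%, 29.4% and 27.9%, so the calls on the pericyte genes do not set them apart in either direction. Over all 10 genes, 6, 5 and 5 were called lower in these comparisons, and 1, 1 and 0 higher.

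**Figure D1:**
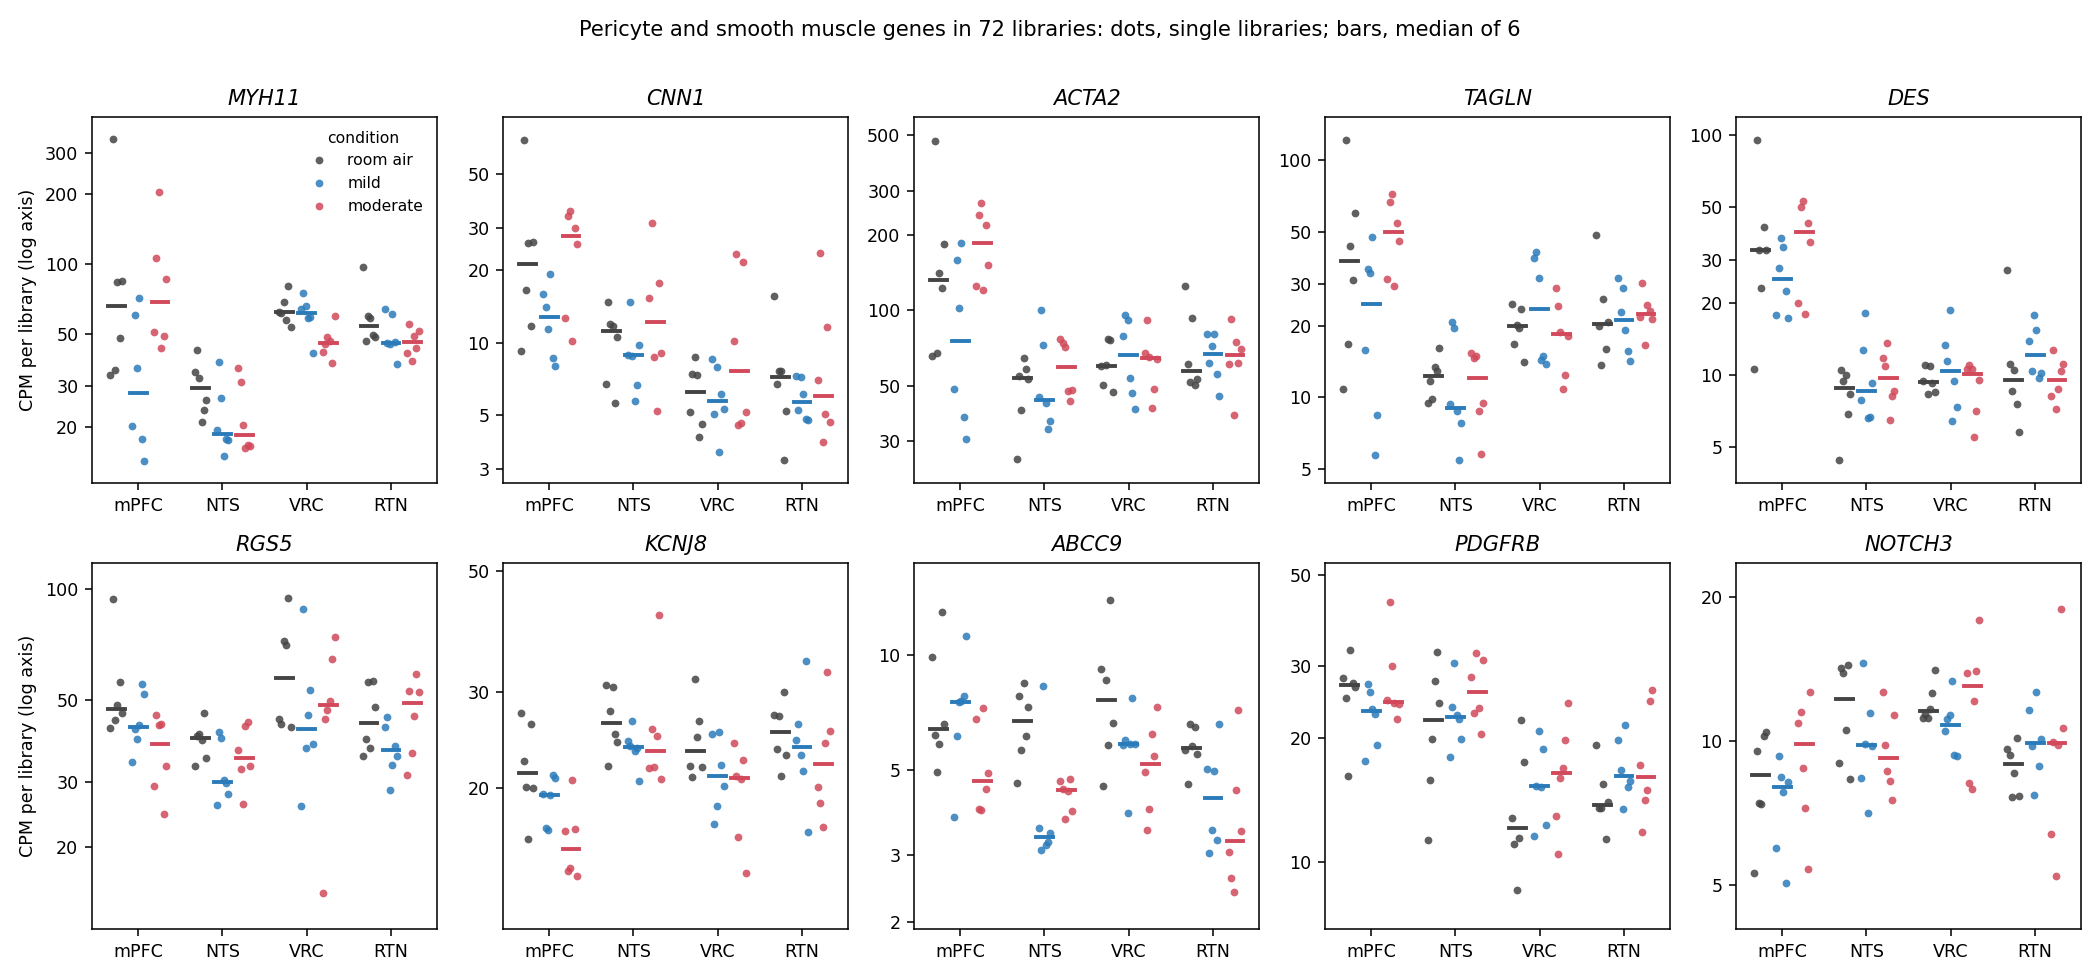
Level (CPM, log axis) of each of the 10 genes in every library, by region on the horizontal axis and by condition in colour, with bars at the median of 6 libraries. In room air the medians of the contractile genes in the upper row are highest in mPFC, with 1 library at 342 CPM for MYH11, while under mild hypercapnia MYH11 has a lower median in mPFC (27.9 CPM) than in VRC (61.6 CPM). ABCC9 has lower medians under hypercapnia than in room air in the 3 brainstem regions.

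DES showed the widest regional contrast in room air. Its CPM value, a count relative to the normalised library size, ran in mPFC from 10.6 over a median of 33.2 to 95.4, and in NTS from 4.41 over 8.86 to 10.5. The lowest mPFC library was just above the highest NTS library. DES was lower in NTS by a log2 fold change of -2.27 ± 0.39 (SE, adjusted p = 3.36e-05). It was lower also in VRC (-2.08 ± 0.39, adjusted p = 5.87e-05) and RTN (-1.73 ± 0.38, adjusted p = 0.000444). Without mPFC room air replicate 2 the DES values were -1.79, -1.60 and -1.25 in NTS, VRC and RTN, all still called, and without RTN room air replicate 1 the RTN value was -2.17.

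ACTA2 and TAGLN, actin and an actin-binding protein, had the same order of regions. ACTA2 ran from 66.0 over a median of 132 to 475 CPM in mPFC and from 25.5 over 53.8 to 64.3 in NTS. The log2 fold changes of ACTA2 against mPFC were -1.85 ± 0.37 in NTS, -1.55 ± 0.37 in VRC and -1.27 ± 0.36 in RTN (adjusted p = 0.000219, 0.000854 and 0.00466). Without mPFC room air replicate 2, at 475 CPM, they were -1.25, -0.95 and -0.675 (adjusted p = 0.000711, 0.00527 and 0.0431). Without RTN room air replicate 1 the ACTA2 value in RTN was -1.50. TAGLN ran from 10.8 to 122 CPM in mPFC and from 9.43 to 16.2 in NTS, so its groups overlapped at the lowest mPFC library, and its log2 fold change was -1.97 ± 0.40 (adjusted p = 0.000281). Without mPFC room air replicate 2 the TAGLN value in NTS was -1.42 (adjusted p = 0.00131). CNN1 had log2 fold changes of -1.39 ± 0.40 in NTS, -2.13 ± 0.41 in VRC and -1.78 ± 0.40 in RTN. Without that library these were -0.82, -1.565 and -1.22 (adjusted p = 0.0456, 0.000377 and 0.00378), and without RTN room air replicate 1 the CNN1 value in RTN was -2.12.

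MYH11 did not follow the others in the ventral brainstem. In room air it ran from 33.3 over a median of 66.1 to 342 CPM in mPFC, from 21.0 over 29.2 to 42.6 in NTS, from 53.5 over 62.0 to 80.4 in VRC and from 46.6 over 54.0 to 97.4 in RTN. Its VRC and RTN libraries therefore lay within the mPFC range, and NTS lay below both. MYH11 was lower in NTS than in mPFC (log2 -1.82 ± 0.41, adjusted p = 0.000704, and -0.94 with adjusted p = 0.00244 without mPFC room air replicate 2) and higher in VRC than in NTS (log2 1.07 ± 0.40, adjusted p = 0.0427). In VRC and RTN against mPFC its log2 fold changes were -0.75 ± 0.40 and -0.80 ± 0.40 (adjusted p = 0.109 and 0.0937), and without mPFC room air replicate 2 they were 0.13 and 0.08. Without that library 11 of the 15 contractile tests were called lower, TAGLN losing its call in VRC (log2 -0.75, adjusted p = 0.0571) and in RTN (log2 -0.42, adjusted p = 0.3). Without RTN room air replicate 1 the RTN values were -0.98 for MYH11 (adjusted p = 0.0519) and -1.29 for TAGLN (adjusted p = 0.00798).

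PDGFRB, the receptor that holds pericytes to the vessel, was the pericyte gene with the widest regional contrast. In room air it ran from 16.2 over a median of 27.0 to 32.9 CPM in mPFC, from 8.57 over 12.1 to 22.1 in VRC and from 11.4 over 13.7 to 19.3 in RTN. Only the lowest mPFC library reached into the other ranges, and the log2 fold changes were -0.94 ± 0.23 in VRC (adjusted p = 0.00124) and -0.84 ± 0.23 in RTN (adjusted p = 0.00359). NOTCH3 went the other way, at 8.40 ± 2.02 CPM in mPFC and 12.04 ± 1.15 in VRC (SD, n = 6), a log2 fold change of 0.49 ± 0.16 (adjusted p = 0.0115), with 0.47 ± 0.16 in NTS (adjusted p = 0.0174). RGS5 was lower in NTS than in mPFC (log2 -0.52 ± 0.21, adjusted p = 0.0419) and higher in VRC than in NTS (0.63 ± 0.21, adjusted p = 0.0207). KCNJ8 held between group means of 22.1 CPM in mPFC and 26.8 in NTS.

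Under moderate hypercapnia the contractile contrast was again 13 of 15 tests called lower than in mPFC (15 with the replicate block), and under mild hypercapnia it was 5 of 15. Background shares called lower were 20.1%, 24.8% and 24.3% in NTS, VRC and RTN in the moderate condition, where 4, 5 and 6 of the 10 genes were called lower. In the mild condition they were 22.6%, 30.7% and 27.7%, and 2, 3 and 4 of the 10 genes were called lower. Among regions 6 of 10 genes differed in the moderate condition (66.1% of all genes did) and 5 of 10 in the mild condition (70.6% did). The replicate number as a block gave 8 of 10 in the mild condition, and of 15 contractile tests 7 called lower and 1 higher. The last was MYH11 in VRC, which under mild hypercapnia lay above mPFC, with medians of 61.6 and 27.9 CPM (log2 0.68 ± 0.31, adjusted p = 0.0645, and 0.00822 with the block and 0.0379 with DESeq2).

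In moderate hypercapnia MYH11 passed the test against mPFC in all 3 brainstem regions. It ran from 43.7 to 204 CPM in mPFC and from 16.2 to 35.7 in NTS (log2 -1.98 ± 0.30, adjusted p = 7.55e-06). TAGLN was lower in NTS by -2.12 ± 0.27 (adjusted p = 8.07e-07) and DES lower in VRC by -2.01 ± 0.25 (adjusted p = 3.92e-07). Of the pericyte genes KCNJ8 was higher in NTS than in mPFC (log2 0.70 ± 0.18, adjusted p = 0.00355). In mild hypercapnia ABCC9 was lower in NTS than in mPFC (log2 -0.85 ± 0.27, adjusted p = 0.0118). MYH11 was higher in VRC than in NTS in all 3 conditions, by 1.40 ± 0.32 in the mild and 1.05 ± 0.29 in the moderate.

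Markers of fibroblasts and meninges moved with the contractile genes across regions. All 8 tested genes of this list were called lower in NTS, in VRC and in RTN than in mPFC in room air, with median log2 fold changes of -2.21, -2.19 and -2.38. Summed over 9 genes they ran from 89.8 to 1042 RPKM in room air mPFC, 64.9 to 188 in NTS, 63.6 to 124 in VRC and 59.6 to 144 in RTN. Of these 9 genes only DPT, dermatopontin, was at 0 in the median of the 72 libraries, and the collagen gene COL1A1 had a median of 1.48 and a maximum of 45.3 RPKM. Their part in the regional difference of the contractile genes was not tested. The other 16 contractile smooth muscle genes listed had 9, 8 and 9 members called lower than mPFC and 3 called higher in each of the 3 regions.

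Within the groups the contractile genes varied together from library to library and the pericyte genes did so loosely. Correlations were computed over the 72 libraries on log2 CPM after the mean of each of the 12 groups had been taken off, and they are a description with no test, since libraries of 1 number and condition may share an animal and depth differs between libraries. The 10 pairs of contractile genes had Pearson's r from 0.546 to 0.923 with a median of 0.701. ACTA2 and TAGLN were the tightest pair, with r from 0.870 in RTN to 0.958 in mPFC within single regions. MYH11 and ACTA2 followed at 0.807, and MYH11 with CNN1 was the loosest, at 0.546 over all regions and -0.28 in VRC. Pairs of pericyte genes lay between -0.159 (KCNJ8 with PDGFRB) and 0.401 (PDGFRB with NOTCH3), with a median of 0.286. The 25 mixed pairs had a median of 0.021.

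**Figure D2:**
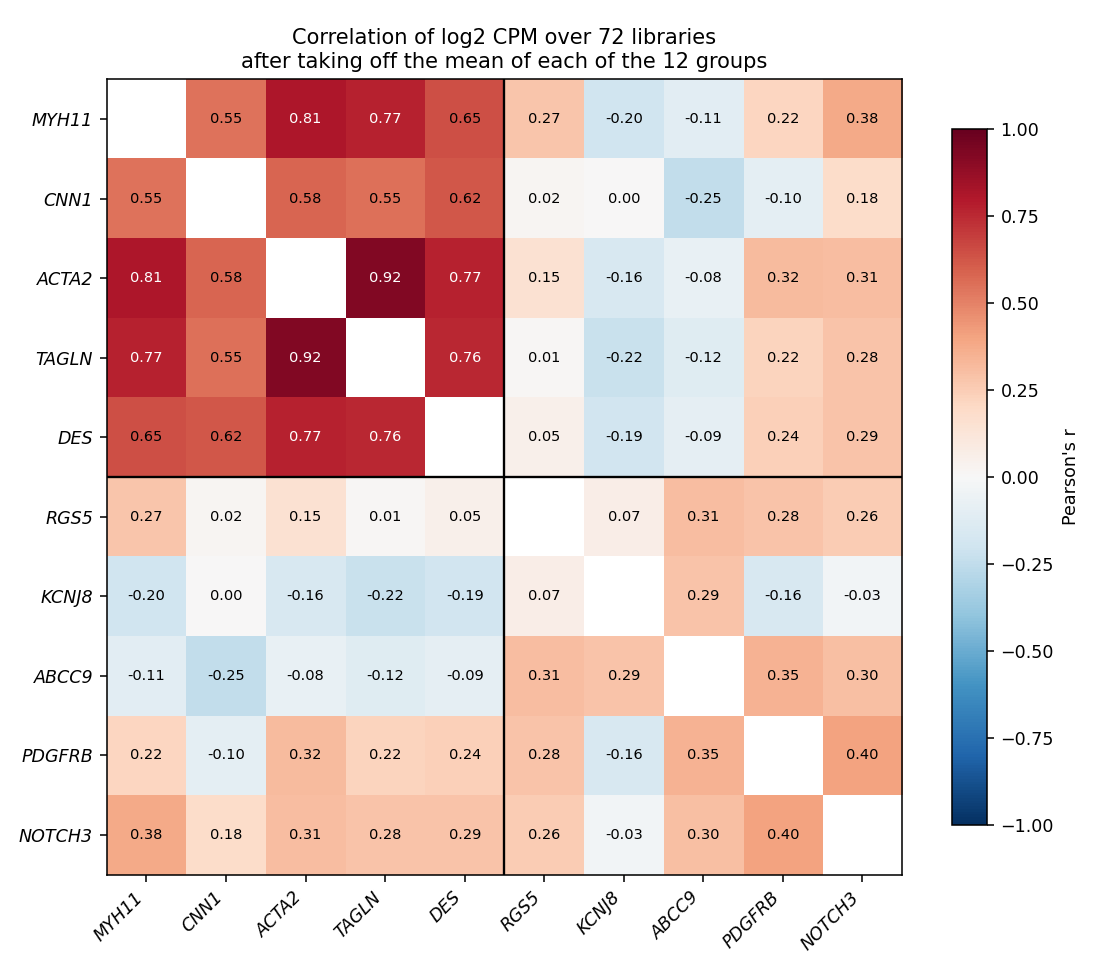
Pearson's r between the 10 genes over 72 libraries, on log2 CPM minus group means, with contractile genes above and left of the black lines and pericyte genes below and right. The contractile block is highest, from 0.546 to 0.923, the pericyte block has a median of 0.286, and the mixed block lies around 0, with a median of 0.021.

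KCNJ8 and ABCC9, whose products join into 1 channel, had r = 0.289 over all regions, from 0.63 in mPFC to 0.15 in VRC. For KCNJ8, r with the 5 contractile genes ran over all regions from -0.223 (TAGLN) to 0.003 (CNN1), but single regions differed. In mPFC it ran from -0.56 (CNN1) to -0.378 (ACTA2), and in RTN from -0.001 (CNN1) to 0.196 (MYH11). With CNN1 in VRC it was 0.402. NOTCH3, which arterial smooth muscle also expresses, had positive r with all 5 contractile genes over all regions, from 0.182 (CNN1) to 0.377 (MYH11). In VRC alone r ran from -0.222 (CNN1) to 0.172 (MYH11). A mean of the 5 contractile genes and a mean of the 5 pericyte genes had r = 0.109 over the 72 libraries (Spearman's rho 0.078, and r = 0.079 without the 2 libraries farthest from the median). By region it was 0.123 in mPFC, 0.493 in NTS, -0.265 in VRC and 0.165 in RTN.

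The genes most like the contractile mean, of 16362 genes compared over 72 libraries, were other smooth muscle genes. ACTG2, the enteric smooth muscle actin, had r = 0.914, MYL9, the regulatory myosin light chain, 0.896, and TPM2, a tropomyosin, 0.84. ACTG2 was scarce, with a median of 1.43 RPKM. The uncertainty over reads shared with ACTA2, part of this mean, holds for this r and for the ACTG2 fold change given below. MYLK, the myosin light chain kinase, had 0.762, FLNA, the actin crosslinker filamin A, 0.749, and CALD1, caldesmon, 0.721. The other two of the closest 8 have no symbol in the table (ENSCHIG00000020792 at 0.775 and ENSCHIG00000024439 at 0.756). The median over all genes was -0.004.

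Genes most like the pericyte mean came from other cells of the vessel and from general cell functions. CYFIP1, a regulator of actin assembly, had r = 0.727, ADGRF5, an adhesion receptor of endothelium, 0.719, and PTPRB, an endothelial phosphatase, 0.696. F11R, a junction protein, had 0.688, ARHGAP29 0.677, ARHGAP12 0.672 and SCAMP2 0.665, against a median of 0.025 over all genes. The 14 endothelial markers had a median r of 0.383 with the pericyte mean and 0.222 with the contractile mean. The 13 other pericyte-associated genes had only 0.15 with the pericyte mean, and 0.302 with the contractile mean. Astrocyte markers had 0.328 with the pericyte mean and 0.075 with the contractile mean, and neuron markers -0.5 and -0.292. The pericyte mean therefore did not follow vessel genes alone, and what it reflects was not tested. As a mean, the endothelial markers had r = 0.568 with the pericyte genes (Spearman's rho 0.532, r = 0.472 without the 2 farthest libraries, and 0.384 to 0.795 within regions). With the contractile genes that mean had r = 0.291 (Spearman's rho 0.384, and 0.184 to 0.442 within regions). Without the 2 farthest libraries it was 0.427, near the pericyte value, so the link to endothelium was not particular to the pericyte genes.

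The contractile mean moved with the fibroblast and meningeal markers from library to library as well as between regions. Over 72 libraries r was 0.617 (Spearman's rho 0.569, r = 0.54 without the 2 farthest libraries). Within regions it was 0.718 in mPFC, 0.307 in NTS, 0.531 in VRC and 0.484 in RTN. In mPFC the contractile mean of room air replicate 1 lay farthest below its group, by 1.32 on the log2 scale, and its fibroblast mean lay 2.01 below. That of room air replicate 2 lay farthest above, by 1.83, with its fibroblast mean 1.252 above. Moderate replicate 3 went the other way, its contractile mean 0.786 above and its fibroblast mean 1.068 below its group. The pericyte means of room air replicates 1 and 2 departed by -0.01 and 0.17, where the SD of their group was 0.229. Among the pericyte genes RGS5 did stand apart in replicate 2, at 93.8 CPM against 41.9 to 55.7 in the rest of its group.

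**Figure D3:**
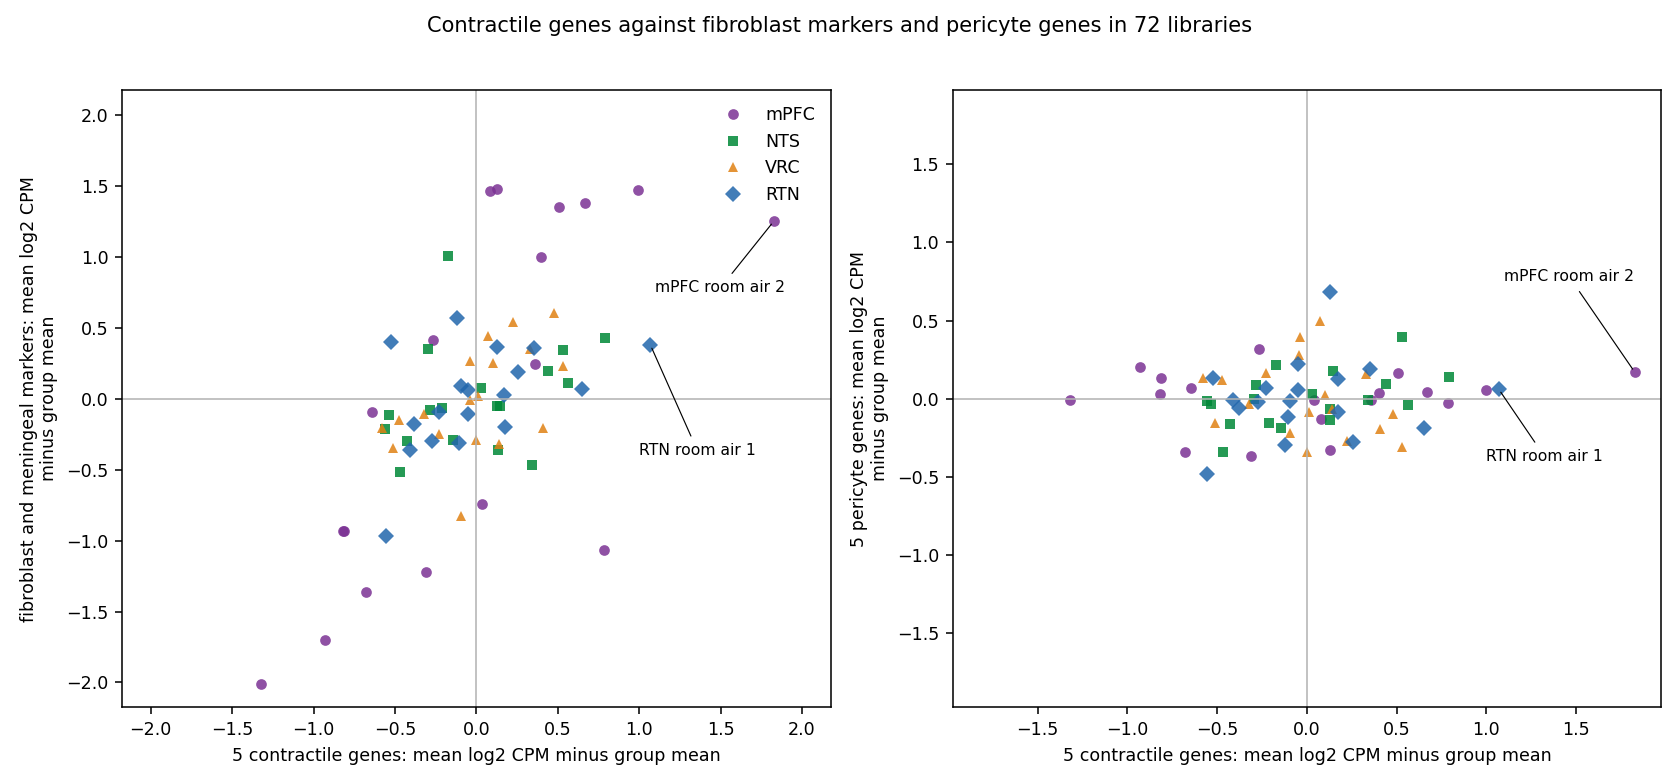
Each point is 1 of 72 libraries, placed by the mean log2 CPM of the 5 contractile genes minus its group mean on the horizontal axis and by that of fibroblast and meningeal markers (left) or of the 5 pericyte genes (right) on the vertical axis, with regions marked by colour and shape. The left cloud is tilted (r = 0.617), most clearly in mPFC. The right cloud is flat (r = 0.109), and the pericyte mean of mPFC room air replicate 2 lies 0.17 above its group mean.

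Hypercapnia left all 10 genes without a call in every region. No gene of the 10 passed an edgeR adjusted p under 0.05 in any of the 8 comparisons with room air, nor in the 4 regions summed, where 1 library per region of the same condition and number was added up. Of all genes tested 0% were called in these comparisons, except 0.00649% in NTS under moderate hypercapnia. DESeq2 and limma likewise called 0 of the 10. At an unadjusted p under 0.05 the counts of lower members were 2 of 10 in mPFC under mild (1.44% of all genes) and 2 under moderate hypercapnia (0.961%), 1 in NTS under mild (2.32%) and 1 under moderate (7.92%), 3 in VRC under moderate (2.85%) and 2 in RTN under moderate (3.6%). One member of the 10 was higher in VRC under moderate hypercapnia (2.82%), and 0 in either direction in VRC (6.23%) and RTN (6.59%) under mild. In bulk tissue, fewer cells of a type and less RNA per cell cannot be told apart.

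**Figure D4:**
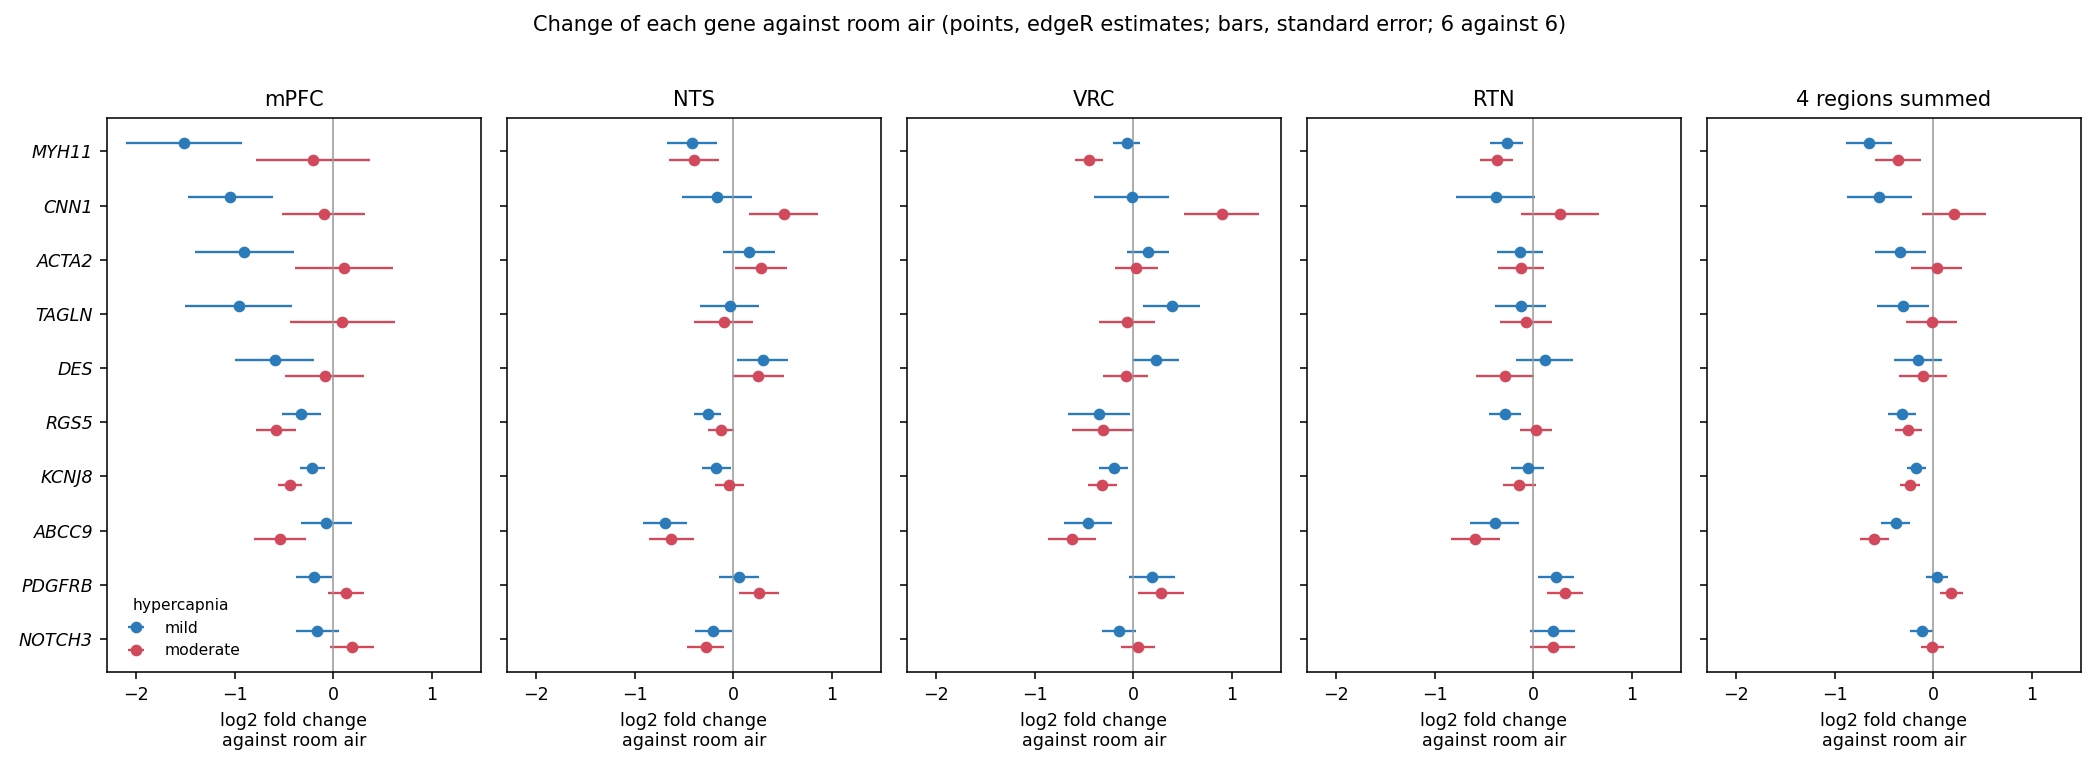
Log2 fold change of each gene against room air (points) with its standard error (bars) in the 4 regions and in the sums of 4 regions, for mild and moderate hypercapnia, from 6 against 6 libraries. In mPFC under mild hypercapnia all 10 points lie left of 0, and the ABCC9 points lie left of 0 in every panel.

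ABCC9, the regulatory subunit of the ATP-sensitive potassium channel, had the smallest p of the 10 genes in the summed comparison. Its sums in room air were 7.23, 6.17, 6.44, 6.65, 9.29 and 6.55 CPM from replicate 1 to 6, and under moderate hypercapnia 4.57, 3.67, 3.44, 5.78, 5.42 and 4.98. The highest moderate sum lay below the lowest room air sum, a separation that 0.26% of all genes had. The log2 fold change was -0.60 ± 0.15, and with adjustment over 16895 genes it missed the threshold (adjusted p = 0.579). Over 21 other settings the log2 fold change stayed between -0.669 and -0.505, and its adjusted p ran from 0.0599 with DESeq2 up to 0.997. Under mild hypercapnia the sums ran from 4.38 to 6.85 CPM, overlapping room air, with a log2 fold change of -0.38 ± 0.15 (adjusted p = 0.836).

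By region ABCC9 had log2 fold changes below 0 in all 8 comparisons, which in pairs share the room air libraries of their region. They ran from -0.69 to -0.07, with 4 of them at an unadjusted p under 0.05. In mild mPFC its median was above that of room air (7.54 against 6.39 CPM), with only 2 of 6 libraries below the latter. What share of all genes had the same sign in 7 or 8 of these comparisons was not computed, here or for the genes below. In NTS it was at 4.61, 7.78, 5.65, 8.45, 6.14 and 7.31 CPM in room air and at 3.53, 3.09, 8.31, 3.19, 3.24 and 3.43 under mild hypercapnia. In this mild group 5 libraries lay below every room air library and replicate 3 lay near the top of the room air range. The log2 fold change was -0.69 ± 0.23 (adjusted p = 0.848), and without mild replicate 3 it was -1.02 ± 0.16 (adjusted p = 0.0736). Under moderate hypercapnia NTS ran from 3.71 to 4.73 CPM (log2 -0.63 ± 0.23, adjusted p = 0.33), VRC from 3.48 to 7.30 (-0.625 ± 0.24, adjusted p = 0.864) and RTN from 2.40 to 7.19 (-0.59 ± 0.25, adjusted p = 0.635). Without room air replicate 5 the VRC value was -0.411. ABCC9 rested on 45 to 252 counts per library, the fewest of the 10 genes.

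KCNJ8, the pore subunit of that channel, was also below room air in all 8 comparisons, by smaller amounts (log2 -0.44 to -0.04). In mPFC it was at 27.5, 22.5, 20.1, 16.2, 26.2 and 20.04 CPM in room air and at 16.7, 14.1, 14.3, 20.7, 16.9 and 13.8 under moderate hypercapnia. All 6 moderate libraries lay under the room air median of 21.3, and the groups overlapped between 16.2 and 20.7 (log2 -0.44 ± 0.13, adjusted p = 1). In the sums KCNJ8 had -0.24 ± 0.10 under moderate hypercapnia (adjusted p = 0.801).

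RGS5 was below room air in 7 of 8 comparisons. It had 54.99 ± 19.6 CPM in room air mPFC and 36.4 ± 8.57 under moderate hypercapnia (SD, n = 6). All 6 moderate libraries were below the room air median of 47.2, and the log2 fold change was -0.58 ± 0.20 (adjusted p = 1). Without room air replicate 2, at 93.8 CPM, it was -0.36 (adjusted p = 0.998). The sums gave -0.32 ± 0.14 under mild (adjusted p = 0.836) and -0.25 ± 0.14 under moderate hypercapnia (adjusted p = 0.844). PDGFRB was above room air in 7 of 8 comparisons, with log2 fold changes between -0.19 and 0.33, and none reached an unadjusted p under 0.05. In the sums all 6 moderate libraries of PDGFRB, 19.9 to 26.0 CPM, lay above the room air median of 19.6 (log2 0.18 ± 0.11, adjusted p = 0.856). NOTCH3 was split, negative in 4 of 8, between -0.28 and 0.20.

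In mPFC under mild hypercapnia all 10 genes had log2 fold changes below 0, as had 52% of all genes, with a median of -0.46 against -0.01 over all genes. The contractile genes had a median of -0.96 and the pericyte genes of -0.19. MYH11 was at 33.3, 342, 35.2, 83.8, 48.3 and 84.7 CPM in room air and at 20.1, 60.3, 35.7, 71.3, 17.8 and 14.3 under mild hypercapnia. The groups overlapped widely, and the room air library at 342 stood 4-fold above the next. The log2 fold change was -1.52 ± 0.59 (adjusted p = 1), and without that library it was -0.63 ± 0.47 (adjusted p = 1). CNN1 had -1.045 ± 0.43 (adjusted p = 1), and -0.46 ± 0.35 without it. ACTA2, TAGLN and DES, at -0.90, -0.96 and -0.59 with it, were at -0.29, -0.40 and -0.09 without it. The median over the 10 genes was then -0.19.

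Under moderate hypercapnia the contractile genes of mPFC had a median log2 fold change of -0.09. Over all 10 genes the median was also -0.09, and it turned to 0.317 without room air replicate 2 and to 0.109 with the replicate block. ACTA2 was at 125, 240, 269, 120, 219 and 152 CPM, within the room air range of 66.0 to 475, with a log2 fold change of 0.11 ± 0.50. Between the hypercapnia conditions MYH11 was higher in moderate than in mild mPFC by 1.31 ± 0.59 and CNN1 by 0.95 ± 0.43, both with adjusted p = 0.954. These were 2 of 10 genes at an unadjusted p under 0.05 and higher, against 2.17% of all genes. The fibroblast and meningeal markers in mPFC had summed medians of 388 RPKM in room air, 374 in mild and 452 in moderate hypercapnia, and a mean log2 CPM of 5.76 ± 1.41, 5.35 ± 1.44 and 6.35 ± 1.15 (SD, n = 6). Their part in these differences was not tested.

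In VRC under moderate hypercapnia MYH11 and CNN1 had fold changes of opposite sign, neither of them called. MYH11 was at 62.2, 61.8, 68.6, 57.7, 80.4 and 53.5 CPM in room air and at 41.9, 45.4, 48.4, 46.5, 37.6 and 59.9 under moderate hypercapnia, 5 of 6 moderate libraries lying below every room air library (log2 -0.45 ± 0.14, adjusted p = 0.793). CNN1 was at 4.09 to 8.73 CPM in room air and at 10.2, 23.4, 4.56, 4.66, 21.7 and 5.19 under moderate hypercapnia. Its mean was carried by replicates 2 and 5, the other 4 lying at or near the room air range (log2 0.90 ± 0.38, adjusted p = 0.864). The moderate libraries numbered 2 and 5 were also the highest in CNN1 in NTS (31.6 and 17.7 CPM) and in RTN (23.7 and 11.6). In mPFC they were at 33.5 and 29.95, below replicate 3 at 35.3.

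In RTN under moderate hypercapnia MYH11 was at -0.37 ± 0.17 (adjusted p = 0.653) on the log2 scale, and without room air replicate 1, at 97.4 CPM, at -0.18 (adjusted p = 0.871). In the sums of 4 regions MYH11 had -0.65 ± 0.23 under mild (adjusted p = 0.836) and -0.36 ± 0.23 under moderate hypercapnia (adjusted p = 0.865). Without room air replicate 2 the mild value was -0.35 (adjusted p = 0.999). MYH11 was below room air in all 8 comparisons by region, between -1.52 and -0.07. Under mild hypercapnia 9 of the 10 genes were below 0 in the sums, against 48.1% of all genes, and 3 (MYH11, RGS5 and ABCC9) had an unadjusted p under 0.05 (3.17% of all genes). Under moderate hypercapnia ABCC9 and KCNJ8 did (3.15%). The median over the 10 genes in the mild sums was -0.31, and it was -0.12 without mPFC and -0.15 without room air replicate 2.

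A difference of the response between regions was not called for any of the 10 genes, under mild or moderate hypercapnia (0% of all genes were called). That fit took the 72 libraries as independent, and limma with condition and number as a random block, at an estimated correlation of 0.175, also called 0 of the 10. MYH11 had the smallest p under mild hypercapnia (adjusted p = 1), with log2 fold changes of -1.52 in mPFC, -0.42 in NTS, -0.07 in VRC and -0.27 in RTN. ABCC9 under moderate hypercapnia had an adjusted p = 1, with values from -0.63 to -0.54 in the 4 regions.

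Genes that act on or beside the mural cells were described from fixed lists in the sums of 4 regions, where 0 genes of any list were called. Of the 18 Notch and PDGF partners 5 had an unadjusted p under 0.05 and a negative fold change in mild and 4 in moderate hypercapnia, against 3.17% and 3.15% of all genes, and 0 had a positive one. DLL4, the Notch ligand of arterial and sprouting endothelium, had log2 fold changes of -0.735 ± 0.17 (adjusted p = 0.644) in mild and -0.86 ± 0.17 (adjusted p = 0.447) in moderate. NOTCH1, a receptor of that ligand in endothelium, had -0.60 ± 0.15 and -0.59 ± 0.15 (adjusted p = 0.644 and 0.661). The other partners lower at that threshold are not named here, while JAG1, HEY1 and PDGFB were chosen after their values were seen. JAG1, a ligand for NOTCH3, had 0.035 ± 0.092 and 0.053 ± 0.092, and HEY1, a Notch target, 0.10 ± 0.08 and -0.015 ± 0.077. PDGFB, the ligand of PDGFRB, had 0.21 ± 0.14 and 0.19 ± 0.14.

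The remaining lists of the vessel wall gave few values at an unadjusted p under 0.05. Of 16 further contractile genes 0 passed in mild hypercapnia, with a median of -0.11, and 1 was higher in moderate, TPM1, a tropomyosin (log2 0.16 ± 0.06, adjusted p = 0.801). ACTG2 had -0.795 ± 0.43 and PDLIM3, a Z-disc adaptor, -0.21 ± 0.11 under mild hypercapnia (adjusted p = 0.836 for both), and PLN, phospholamban, -0.38 ± 0.21 under moderate (adjusted p = 0.844). Of 13 pericyte-associated genes tested 0 passed in either condition, and CSPG4, the NG2 proteoglycan of pericytes, had -0.24 ± 0.13 in mild and 0.23 ± 0.13 in moderate. GJA4, a connexin of arteries, had 0.395 ± 0.23 in mild, and MCAM, a mural and endothelial adhesion molecule, 0.31 ± 0.18 in moderate. Of 10 regulators of the smooth muscle programme MEF2C, a transcription factor also expressed by neurons, had 0.43 ± 0.18 under mild hypercapnia (adjusted p = 0.836), and 0 passed in moderate. MRTFB, a coactivator of smooth muscle transcription, had 0.25 ± 0.12 and 0.18 ± 0.12, and SMAD3, a mediator of TGF-beta signals, 0.12 ± 0.12 in moderate.

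Of 17 vessel tone genes EDNRB, the endothelin B receptor, had a log2 fold change of -0.52 ± 0.13 under mild hypercapnia (adjusted p = 0.644) and -0.21 ± 0.13 under moderate. KCNMB1, a subunit of the smooth muscle BK channel, had -0.35 ± 0.18 in mild, and NOS3, the endothelial nitric oxide synthase, 0.26 ± 0.18 in moderate. Of 14 endothelial markers MFSD2A, a lipid transporter of the blood-brain barrier, had -0.38 ± 0.14 under mild hypercapnia and TIE1, an endothelial receptor kinase, -0.55 ± 0.23 under moderate (adjusted p = 0.836 and 0.801). PECAM1, an endothelial adhesion molecule, had 0.17 ± 0.12 and 0.23 ± 0.12. Of 8 fibroblast and meningeal markers 0 passed in either condition, with medians of -0.035 in mild and 0.37 in moderate hypercapnia. Astrocyte, neuron, myelin and blood lists held 1 gene each at an unadjusted p under 0.05 in mild hypercapnia, and of these lists myelin held 1 in moderate. They were GJA1, a gap junction protein (-0.28 ± 0.11), SYT1, a synaptic vesicle protein (0.60 ± 0.24), the myelin gene CNP (-0.24 ± 0.11) and CD4 (0.895 ± 0.36) in mild, and the myelin gene ERMN (-0.38 ± 0.12) in moderate. Skeletal muscle and choroid plexus lists held 0 in both conditions.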

How the data were processed

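Libraries were made from total RNA with a SMARTer low-input kit, per the labels' protocols. FastQC, Trimmomatic, STAR, featureCounts and edgeR are named in the submitters' processing notes, while their versions, the genome build, the use of strand and the treatment of shared reads were not given in the sources used here. The authors deposited raw counts per gene, RPKM values (scaled to gene length and library size) and the gene length in bases, of the unit other, for 72 libraries. No sequence is printed, since no sequence table was used here.

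Counts were tested across all genes with the edgeR 4.0.16 quasi-likelihood F-test in R 4.3.3, with filterByExpr at a minimum count of 10, TMM factors and Benjamini-Hochberg adjustment at 0.05. Each region was fitted on its 18 libraries, sums of 4 regions on 18 sums, regions within a condition on 24 libraries, and the difference of response among regions on 72, taken as independent. SE is the size of the log2 fold change over the root of F. CPM used TMM factors of all 72 libraries, so ratios of printed means depart slightly from the fitted fold changes. Correlations used a prior count of 2.

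The members and gene lists were chosen with earlier results of these data known. The named genes are the 10 members, from each of 13 lists the 2 tested genes of smallest p in each summed comparison with room air, and the 8 genes most like each mean. JAG1, HEY1 and PDGFB were chosen after their values were seen. One gene among those most like the pericyte mean is not reported here. Genes that the rule picks from lists outside the vessel wall are in part given only by their list's counts.

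Between conditions, libraries of the same region and number had residuals with a median r of 0.02 (22 of 72 pairs over 0.1), so they were not taken as paired. Within a condition, those of the same number in different regions had 0.233 (92 of 108 pairs over 0.1). The alternatives were DESeq2 1.42.0, limma 3.58.1 with voom, RLE factors, no filter, the replicate block, the groups compared alone and leaving out each library. Scripts were run on simulated counts with known changes. These were drawn independently and with the same dispersion for all genes, unlike the libraries here. They therefore do not show how the tests perform for genes as variable as the contractile ones.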

Additional observations from a re-analysis of the deposited data

Results flagged for a closer look

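Of 120 groups of 6 libraries, 12 held a library whose gap to the next exceeded Dixon's 95% critical value. The nominal 5% of that rule assumes independent groups of normally distributed values. The contractile genes vary together across libraries, so the 12 cannot be set against that share. Of the 12 flagged, 5 were the same library, mPFC room air replicate 2, and 4 were RTN room air replicate 1. In the mPFC library MYH11 was at 342 CPM against 33.3 to 84.7 in the other 5, CNN1 at 69.5 against 9.26 to 26.2, ACTA2 at 475 against 66.0 to 184, DES at 95.4 against 10.6 to 41.4 and RGS5 at 93.8 against 41.9 to 55.7. In the RTN library MYH11 was at 97.4 CPM against 46.6 to 60.0, CNN1 at 15.7 against 3.26 to 7.67, TAGLN at 48.6 against 13.6 to 26.1 and DES at 27.4 against 5.81 to 11.1. The remaining 3 were pericyte genes in 3 different libraries. KCNJ8 in NTS moderate replicate 5 was at 41.5 CPM against 20.8 to 25.7. ABCC9 in NTS mild replicate 3 was at 8.31 CPM against 3.09 to 3.53. PDGFRB in mPFC moderate replicate 2 was at 42.9 CPM against 22.3 to 30.1.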

How the results depend on the processing

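Of 297 recomputed counts of members called, 296 stayed within 1.5 times the reported count. Most were comparisons between conditions, where the reported count was 0, so they show only that no setting added a call there. The 1 that moved was the count among regions in the mild condition, where the replicate number as a block gave 8 members instead of 5. All 279 recomputed medians over the 10 genes moved by less than 1 SD between replicates of their mean level, a margin wide enough for several to change sign. Against room air they ran from -0.277 to 0.317 in mPFC moderate, -0.121 to 0.023 in VRC mild, -0.223 to 0.034 in VRC moderate, -0.228 to 0.026 in RTN mild, -0.206 to 0.128 in RTN moderate and -0.144 to 0.092 in the moderate sums. Between moderate and mild they did so in RTN (-0.058 to 0.131) and the sums (-0.02 to 0.22). Of 678 recomputed log2 fold changes 665 kept their direction and side of the threshold, 3 lost a call, 7 gained one and 3 changed sign. Without mPFC room air replicate 2, a setting added after the data were seen, MYH11 in room air became 0.129 in VRC and 0.08 in RTN against mPFC. Without RTN room air replicate 1, likewise added, these were -0.746 and -0.984. With the replicate block TAGLN in RTN against mPFC in the mild condition became 0.039, from -0.163. The block is a number shared between conditions in the condition comparisons and between regions in the regional ones. It changed no call of a member against room air, and of the regional calls it removed that of TAGLN in room air RTN (-0.844, adjusted p = 0.0833) and added 5 of contractile genes, of which 4 were lower than mPFC in the mild and moderate conditions and 1 was higher (MYH11 in mild VRC, 0.827, adjusted p = 0.00822). The causes were not tested. Counts of 45 to 252 per library limit the precision of ABCC9.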
